A study of Bos taurus with 24 samples.

Results

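The genes described here encode 6 enzymes that introduce double bonds into fatty acids or lengthen them: the desaturases SCD, FADS1 and FADS2 and the elongases ELOVL1, ELOVL5 and ELOVL6. They were taken by gene symbol from the platform annotation, with the brightest array feature kept where a gene had more than 1, out of 18444 genes named on the array. All 6 passed a filter on dim genes that kept 14198 genes for testing. Only SCD had a second feature.

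Muscle was taken by needle from the gluteus medius, in the hindquarter, of 12 crossbred beef cows, and each cow was sampled at 2 biopsies. High gain cows were the 6 fastest and low gain cows the 6 slowest of 121 animals, ranked on weight gain while feed was freely available. One biopsy fell on day 105 of a 112-day restriction (120 kcal of metabolizable energy for each kg of metabolic body weight), and the other on day 49 of 112 days of free feeding that came next. The labels number the biopsies without naming the period, so biopsy 2 is read here as free feeding and biopsy 1 as restriction, in the protocol's order. Class and biopsy number together gave 4 groups of 6 arrays: each class had a biopsy 2 group and, from the same cows, a biopsy 1 group. The labels used here give no age.

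Long-chain fatty acids are made in the cytosol as palmitate, and the endoplasmic reticulum then modifies them. Elongases add carbon units from malonyl-CoA in the first step of a 4-enzyme cycle, and desaturases add double bonds with electrons passed on by cytochrome b5. SCD makes oleate from stearate and is abundant in bovine fat, where its product shapes the softness of beef fat. ELOVL6 lengthens palmitate to stearate and so feeds SCD. FADS2 and FADS1 carry out the delta-6 and delta-5 steps that turn dietary linoleate and alpha-linolenate into long polyunsaturated acids, with ELOVL5 acting between them. ELOVL1 lengthens saturated and monounsaturated very-long-chain acids found in sphingolipids.

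The arrays of the biopsies differed in their upper limit, with a highest value of 19.93 in biopsy 2 and 19.81 in biopsy 1. Array medians were 7.79 to 7.85 at biopsy 2 and 7.68 to 7.88 at biopsy 1, all as deposited and on a scale taken as log2. Whether the arrays of each biopsy were normalized as a separate set is not stated. If they were, biopsy number and normalization set cannot be told apart. Values compared between biopsies below were therefore quantile normalized over all 24 arrays, which does not remove a shift of single genes. Among 806 odorant receptor genes, which sense odours in the nose, 99% changed on average over cows by less than 1.03 in either direction. Their median change was 0.03. Whether this range holds for genes of other kinds was not tested. The muscle markers ACTA1, CKM and TTN were at or near the upper limit on nearly all arrays, but on the biopsy 1 array of low gain cow 4 ACTA1 was 14.51 and CKM 14.60, while TTN was at the upper limit there too. The mean of the 11 muscle markers on that array was 14.88, against at least 19.26 on the other biopsy 1 arrays. Means of adipocyte, fibroblast, endothelial and leukocyte markers were each highest at biopsy 2 on the array of high gain cow 4 and highest at biopsy 1 on that of low gain cow 4. Low gain cow 4 and high gain cow 4, whose biopsy 2 array had the highest ADIPOQ level (18.17), were also left out together, a choice made with earlier results known. In bulk tissue, fewer cells of a type and less RNA per cell cannot be told apart.

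**Figure D1:**
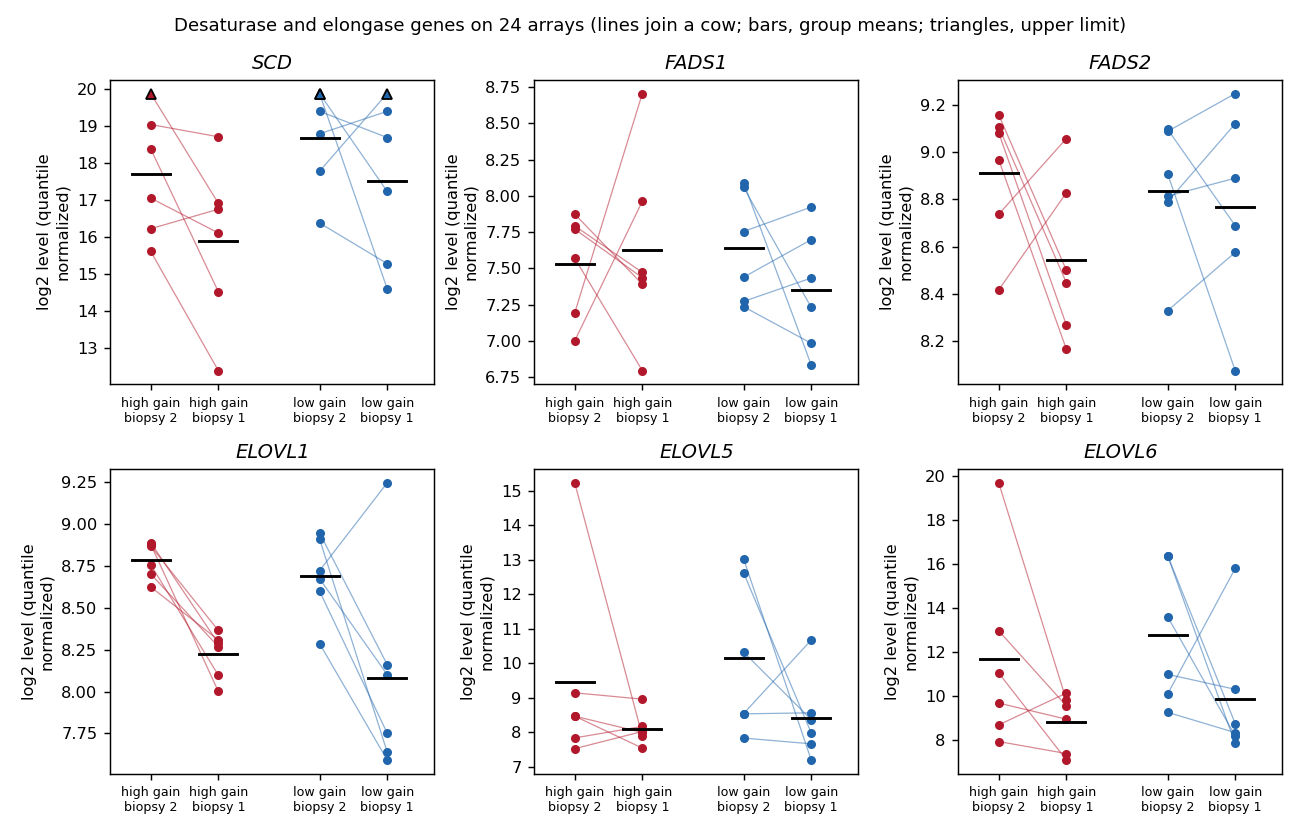
Quantile-normalized log2 level of each gene (y axes differ between panels) on the 24 arrays by gain class and biopsy (x axis), with lines joining the arrays of a cow, bars at group means and triangles at the upper limit. ELOVL1 shifted in nearly all cows within a narrow range, whereas SCD and ELOVL6 spread over several log2 units in each group and ELOVL5 was far above the rest on a few arrays.

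Between biopsies the average change over the 12 cows was upward for all 6 genes, from 0.10 for FADS1 to 2.87 for ELOVL6 on the log2 scale, with a median of 1.03 against 0.02 over all tested genes. Only ELOVL1 passed the test (limma with each cow as a block, Benjamini-Hochberg adjusted p under 0.05). The background was 38.1% of all tested genes called in either direction and 20.8% called higher, so 1 of 6 is not above it. Without cow 4 of each class, SCD, ELOVL5 and ELOVL6 passed as well, which made 4 of 6 higher and none lower, against 42.5% of all tested genes called in either direction, 23% higher and 19.5% lower. Within classes, ELOVL1 was the 1 member called in each, against 20.3% of all tested genes in either class (11.5% higher and 8.73% lower in high gain cows, 10.8% higher and 9.46% lower in low gain cows). Without those 2 cows FADS2 and ELOVL1 were called in the high gain class, against 28.5% of all tested genes (16.3% higher, 12.3% lower), and ELOVL1, ELOVL5 and ELOVL6 in the low gain class, against 22.8% (12.2% higher, 10.6% lower). The classes share 1 estimate of the spread, and the calls of FADS2 and of ELOVL5 were made only with both cows left out: without low gain cow 4 alone ELOVL5 in low gain cows had the same change of 2.51 with a limma adjusted p of 0.116.

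SCD was the desaturase with the widest range. Its quantile-normalized level was 15.61, 17.71 and 19.87 (lowest, median and highest of 6) in high gain cows at biopsy 2, against 12.39, 16.43 and 18.70 at biopsy 1. Among low gain cows it was 16.37, 19.09 and 19.87 at biopsy 2, against 14.60, 17.96 and 19.87 at biopsy 1. The biopsies overlapped in both classes, and the change was upward in 9 of 12 cows. SCD lay at the upper limit on 4 arrays, namely 3 at biopsy 2 (high gain cow 4, low gain cows 2 and 6) and 1 at biopsy 1 (low gain cow 4), where only a lower bound is measured.

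The average change of SCD was 1.48 ± 0.56 (SE, n = 12 cows) as measured, and missed the threshold (limma adjusted p = 0.0523). No fold is given for it, because the change is only a lower bound in high gain cow 4 and low gain cows 2 and 6 and only an upper bound in low gain cow 4. It passed without low gain cow 4, whose own change was -2.10 (1.81 without that cow, limma adjusted p = 0.0132), and without high gain cow 1 (1.71) or low gain cow 1 (1.66), whose changes were -0.53 and -0.61. The dimmer feature of SCD never reached the upper limit of the scale. As deposited it had the same value, 16.7695, on the biopsy 2 arrays of low gain cows 2 and 6, where the brighter feature was at the limit. It was 17.57 on that of high gain cow 4. Whether its high values are compressed was not tested. The quantile-normalized level of the dimmer feature was 13.99, 15.85 and 17.68 (lowest, median and highest of 12) at biopsy 2, against 10.27, 13.75 and 16.58 at biopsy 1. On that feature the change was upward in 11 of 12 cows and averaged 1.70 ± 0.47, with a limma adjusted p of 0.0121 when it took the place of the brighter one. This substitution was made after seeing the upper limit. Across the 24 arrays the SCD features had a Pearson correlation of 0.963 as deposited.

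FADS1 and FADS2 stayed in a narrower range than SCD. FADS1 was 7.0, 7.67 and 7.87 in high gain cows at biopsy 2, against 6.80, 7.45 and 8.70 at biopsy 1. The low gain class had 7.24, 7.60 and 8.09 at biopsy 2, against 6.84, 7.33 and 7.92 at biopsy 1. Its change was upward in 7 cows and downward in 5, with an average of 0.10 ± 0.20 (SE, n = 12, limma adjusted p = 0.725). Single cows ran from -1.51 (high gain cow 6) to 1.26 (low gain cow 5). The biopsies overlapped almost fully in both classes.

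FADS2 was 8.42, 9.02 and 9.16 in high gain cows at biopsy 2, against 8.17, 8.47 and 9.06 at biopsy 1. In low gain cows it was 8.33, 8.86 and 9.10 at biopsy 2, against 8.08, 8.79 and 9.25 at biopsy 1. The average change was 0.22 ± 0.14 (limma adjusted p = 0.237), upward in 6 cows and downward in 6. Within the high gain class 4 cows changed by 0.66 to 0.81, while cows 4 and 6 changed by -0.41 and -0.32. In the high gain class the change was 0.37 ± 0.20 (limma adjusted p = 0.211), and 0.52 ± 0.17 without cow 4 of each class (limma adjusted p = 0.0354). That call needed low gain cow 4 to be left out as well, since both classes share 1 estimate of the spread: without high gain cow 4 alone the same change had a limma adjusted p of 0.0873.

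ELOVL1 gave the most uniform change. In high gain cows it was 8.62, 8.81 and 8.89 at biopsy 2, against 8.0, 8.28 and 8.37 at biopsy 1. The low gain cows had 8.29, 8.70 and 8.95 at biopsy 2, against 7.59, 7.93 and 9.25 at biopsy 1. The high gain biopsies did not overlap, which held for 6.05% of all tested genes with biopsy 2 above and for 5.13% with biopsy 2 below. In low gain cows they overlapped through the biopsy 1 array of cow 4, the array with the lowest muscle marker mean, and did not without that cow. Low gain biopsies did not overlap for 4.89% of all tested genes with biopsy 2 above and for 4.13% with biopsy 2 below.

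The average change of ELOVL1 was 0.59 ± 0.12 (SE, n = 12), or 1.50-fold, upward in 11 of 12 cows (limma adjusted p = 0.00245). Without cow 4 of each class it was 0.71 ± 0.08 (limma adjusted p = 7.42e-05). It was 0.57 ± 0.17 in high gain cows (limma adjusted p = 0.0362) and 0.61 ± 0.17 in low gain cows (limma adjusted p = 0.0269). Both class calls were lost when single cows were left out: the high gain call without any of the 6 high gain cows and the low gain call without any low gain cow but cow 4, with changes of 0.47 to 0.62 and adjusted p of 0.0531 to 0.104 in those fits. A change of 0.59 lies inside the range of 99% of the odorant receptor genes. Feeding period and a separate normalization of the biopsies, if there was one, cannot be told apart in it.

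ELOVL5 was low on most arrays and high on a few. In high gain cows it was 7.53, 8.47 and 15.22 at biopsy 2, against 7.55, 8.01 and 8.96 at biopsy 1. The low gain cows had 7.84, 9.43 and 13.03 at biopsy 2, against 7.21, 8.18 and 10.67 at biopsy 1. The biopsies overlapped, and 3 cows had far larger changes than the rest: high gain cow 4 changed by 7.32, low gain cow 2 by 5.82 and low gain cow 6 by 4.63. Of the other 9 cows, 5 changed upward, by at most 1.95, and 4 downward, to -2.13 in low gain cow 4. The average of 1.54 ± 0.75 did not pass (limma adjusted p = 0.120), and passed at 1.33 ± 0.49 without cow 4 of each class (limma adjusted p = 0.0458). Leaving out 1 cow gave 0.94 (without high gain cow 4) to 1.93 (without low gain cow 4), with limma adjusted p of 0.0477 to 0.237, and the change passed without low gain cow 4 only.

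ELOVL6 had the largest changes of the 6 genes. In high gain cows its level was 7.95, 10.37 and 19.67 at biopsy 2, against 7.12, 9.27 and 10.15 at biopsy 1. For low gain cows it was 9.27, 12.30 and 16.38 at biopsy 2, against 7.86, 8.56 and 15.79 at biopsy 1. It was higher at biopsy 2 in 10 of 12 cows, by 9.84 in high gain cow 4, 8.51 in low gain cow 2, 7.61 in low gain cow 6 and 5.40 in low gain cow 3. It changed by -1.44 in high gain cow 1 and by -5.69 in low gain cow 4.

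The average change of ELOVL6 was 2.87 ± 1.17, or 7.31-fold, and did not pass (limma adjusted p = 0.0686). Leaving out 1 cow gave 2.17 (without high gain cow 4) to 3.73 (without low gain cow 4), with limma adjusted p of 0.00888 to 0.138, and the change passed without low gain cow 4 only. It was 3.03 ± 0.78 without cow 4 of each class (limma adjusted p = 0.00849). In low gain cows it was 2.91 ± 1.66 (limma adjusted p = 0.235), and 4.62 ± 1.10 without cow 4 of each class (limma adjusted p = 0.0121). In high gain cows it was 2.83 ± 1.66, and 1.43 ± 1.10 without those cows, with limma adjusted p of 0.246 and 0.348. Single cows thus moved the class averages by more than 1.5 times in opposite directions.

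**Figure D2:**
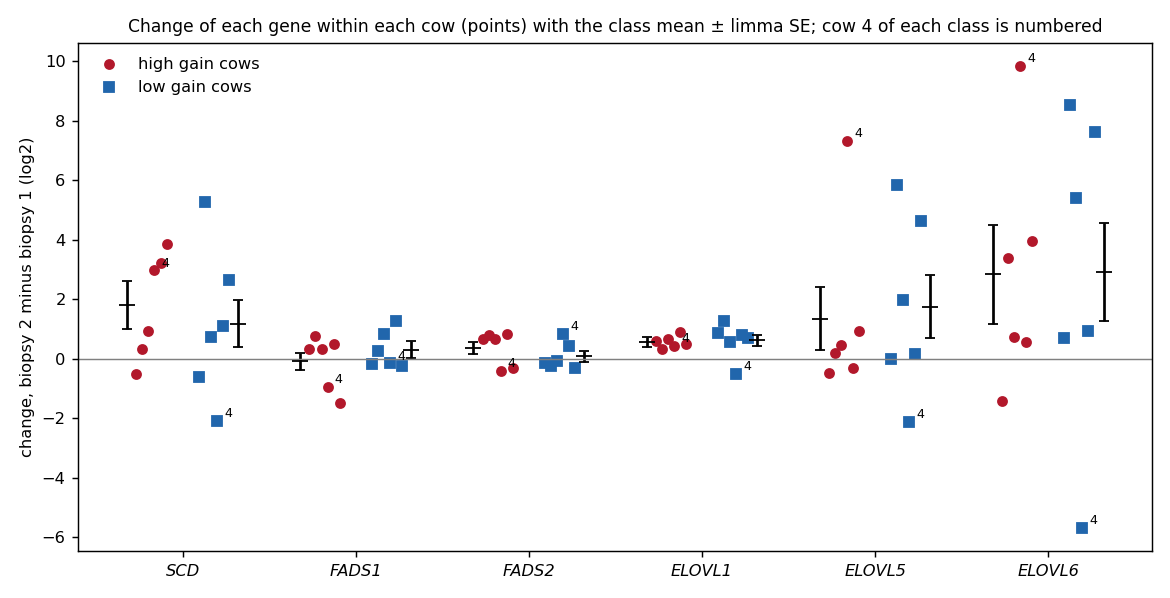
Change of each gene within each cow on the log2 scale (y axis, biopsy 2 minus biopsy 1) for high gain and low gain cows, with class means ± limma SE and cow 4 of each class numbered. ELOVL1 changes lie close together above 0 except in low gain cow 4, and ELOVL6 changes run from -5.69 to 9.84.

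Whether the change depended on gain class was tested as the high gain change minus the low gain change. It was 0.63 ± 1.13 for SCD, -0.38 ± 0.40 for FADS1, 0.29 ± 0.28 for FADS2, -0.04 ± 0.25 for ELOVL1, -0.39 ± 1.49 for ELOVL5 and -0.07 ± 2.34 for ELOVL6. None passed, and none of the 14198 tested genes did (0% called, limma, 512 at an unadjusted p under 0.05). For ELOVL5 and ELOVL6 the errors are wide enough that a class difference of several log2 units was not detectable with 12 cows. Without cow 4 of each class, the difference was -2.36 ± 0.98 for ELOVL5 and -3.19 ± 1.56 for ELOVL6, with limma adjusted p of 0.493 and 0.518. High gain cow 4 had the most positive change of both genes and low gain cow 4 the most negative, so the class difference without them is lower by construction.

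Gain classes were also compared within a biopsy on the values as deposited, where a separate normalization of the biopsies would not enter. SCD averaged 17.71 ± 1.66 in high gain cows and 18.78 ± 1.35 in low gain cows at biopsy 2 (SD, n = 6 each), and at biopsy 1 it averaged 15.87 ± 2.20 in high gain cows and 17.40 ± 2.19 in low gain cows. The differences of -1.06 ± 0.76 and -1.53 ± 1.11 (SE) were within the spread between cows (limma adjusted p of 1 and 0.955). SCD was thus lower on average in high gain cows at both biopsies, but the classes overlapped at each.

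ELOVL5 and ELOVL6 were also lower on average in high gain cows at both biopsies, within the spread between cows. ELOVL6 averaged 11.71 ± 4.24 in high gain cows and 12.85 ± 3.13 in low gain cows at biopsy 2, and 8.79 ± 1.29 in high gain cows and 9.79 ± 2.90 in low gain cows at biopsy 1. ELOVL5 averaged 9.51 ± 2.91 in high gain cows and 10.21 ± 2.24 in low gain cows at biopsy 2, and 8.05 ± 0.46 in high gain cows and 8.35 ± 1.14 in low gain cows at biopsy 1. Without low gain cow 4 the biopsy 1 difference turned to 0.12 for ELOVL5 and to 0.14 for ELOVL6. The biopsy 2 differences of -0.70 ± 1.31 (SE) for ELOVL5 and -1.14 ± 1.87 for ELOVL6 ran from -1.87 to -0.12 and from -2.71 to -0.40 when 1 cow was left out, the lowest without high gain cow 4, and were -2.19 and -3.25 without cow 4 of each class (limma adjusted p = 0.866 each). The other 3 genes differed by at most 0.24 between classes at either biopsy, as with FADS2 at biopsy 1, which averaged 8.48 ± 0.35 in high gain cows and 8.72 ± 0.38 in low gain cows. No member and none of the 14198 tested genes passed at either biopsy (0% called, limma, 334 genes at biopsy 2 and 716 at biopsy 1 at an unadjusted p under 0.05).

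The genes differed in how they moved with markers of fat. A list of 16 adipocyte markers, all on the array, had a mean quantile-normalized level per array of 9.29 to 14.59 (high gain, biopsy 2), 9.32 to 11.16 (high gain, biopsy 1), 9.76 to 12.59 (low gain, biopsy 2) and 9.44 to 13.02 (low gain, biopsy 1). The defining markers were ADIPOQ, PLIN1, LEP and CIDEC. ADIPOQ, PLIN1 and CIDEC were well above the low end of the scale on some arrays of every group. ADIPOQ, the adipocyte hormone adiponectin, had a highest value, as deposited, of 18.17 at biopsy 2 against 14.89 at biopsy 1 among high gain cows. Its median in these cows went the other way, at 10.52 at biopsy 2 against 12.94 at biopsy 1. Among low gain cows the highest value of ADIPOQ was 15.91 at biopsy 2 against 17.98 at biopsy 1. There too the median went the other way, being higher at biopsy 2 (12.69) than at biopsy 1. LEP was lower, with medians of 6.53 to 6.99 in the 4 groups, near the dim limit of 6.76, and lowest values of 6.11 to 6.25. Its highest values were 12.32 at biopsy 2 and 8.12 at biopsy 1 in high gain cows. In low gain cows they were 9.54 at biopsy 2 and 9.53 at biopsy 1. Of the 14 adipocyte markers tested, 3 rose between biopsies and none fell, a share near that of all tested genes called higher (20.8%).

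Each gene was set against the mean of these markers over the 12 cows at biopsy 2, at biopsy 1 and as within-cow change, which gave 18 relations (two-sided permutation tests, adjusted over the 18). ELOVL6 changed with the markers at a Pearson correlation of 0.941 (permutation p = 2e-05, adjusted p = 7.2e-05) and a Spearman correlation of 0.895 (p = 0.0002, adjusted p = 0.0009). ELOVL5 changed with them at 0.959 (permutation p = 2e-05, adjusted p = 7.2e-05) and 0.881 (permutation p = 0.00031, adjusted p = 0.00096), and SCD at 0.806 (permutation p = 0.001, adjusted p = 0.0018) and 0.797 (p = 0.00291, adjusted p = 0.00524). Without the 2 cows farthest from the median of the markers, high gain cow 4 and low gain cow 2, the Pearson correlations were 0.919, 0.879 and 0.796. These 3 genes moved with the fat markers from cow to cow. Relations to markers of other cell types were not tested. The fibroblast marker mean moved with the fat markers in high gain cow 4 (12.49 at biopsy 2 against 10.15 at biopsy 1), low gain cow 2 (11.49 against 9.19) and low gain cow 4 (10.28 against 13.44). It also moved in the same direction as the fat markers in the other cows, except high gain cow 5 and low gain cow 5. The fat markers of those cows changed by -0.13 and 0.03. What part the amount of fat in a biopsy had in the changes of SCD, ELOVL5 and ELOVL6 was not tested.

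FADS2 went the other way. Its change had a Pearson correlation of -0.790 with that of the markers (permutation p = 0.00034, adjusted p = 0.000874) and a Spearman correlation of -0.867 (permutation p = 0.00056, adjusted p = 0.00144), and -0.752 by Pearson without those cows. The highest change of FADS2, 0.83, was in low gain cow 4, whose adipocyte markers changed by -2.84, and the lowest, -0.41, was in high gain cow 4, whose markers changed by 4.10. FADS1 and ELOVL1 gave -0.354 (permutation p = 0.259, adjusted p = 0.311) and 0.542 (permutation p = 0.0746, adjusted p = 0.0959) by Pearson, and -0.357 (permutation p = 0.256, adjusted p = 0.329) and 0.301 (permutation p = 0.345, adjusted p = 0.365) by Spearman.

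**Figure D3:**
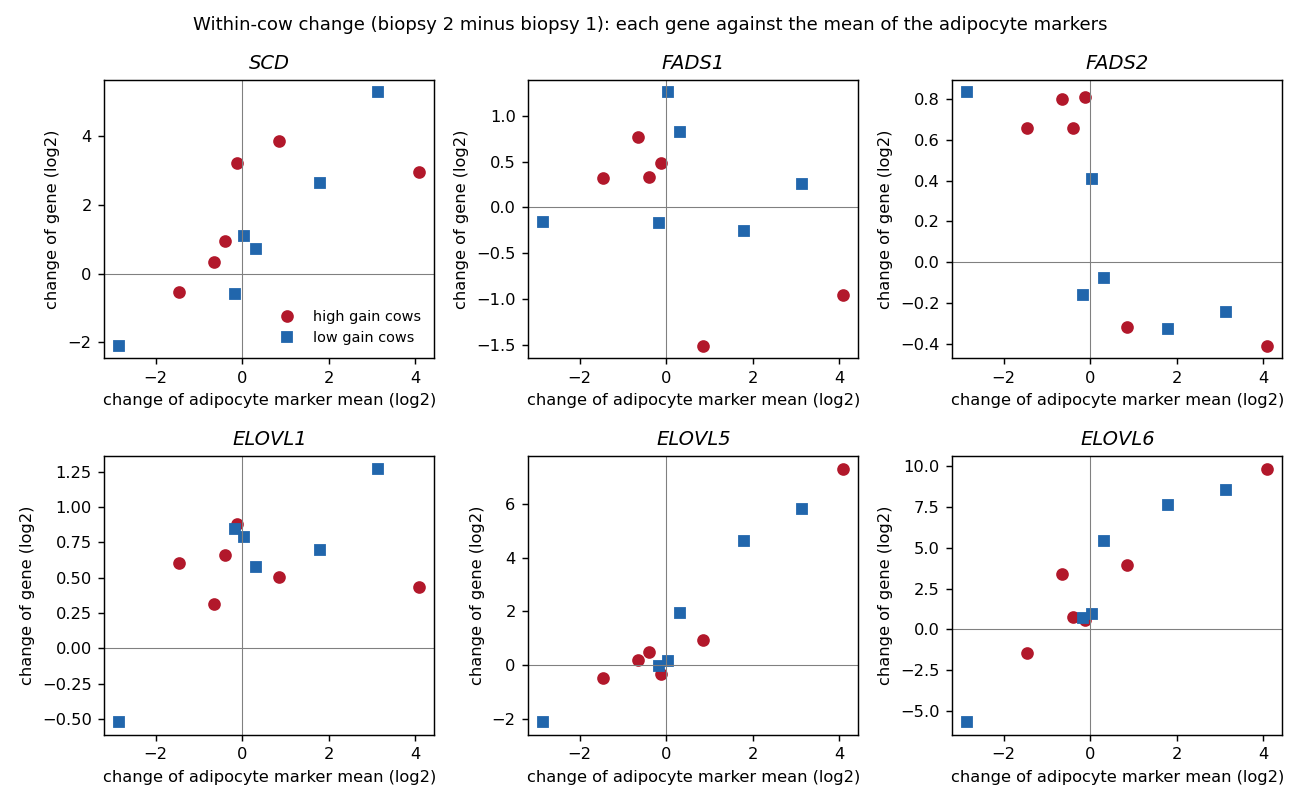
Within-cow change of each gene (y axis, log2) against the change of the mean of 16 adipocyte markers (x axis, log2) in high gain and low gain cows, 1 point per cow. Points rise from lower left to upper right for SCD, ELOVL5 and ELOVL6 and fall from upper left to lower right for FADS2.

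Within single biopsies, where values were used as deposited, ELOVL5 and ELOVL6 kept their relation to the markers. At biopsy 2 the Pearson correlations were 0.980 for ELOVL5 and 0.969 for ELOVL6 (permutation p = 1e-05 each, the smallest the resamples can give, adjusted p = 6e-05), with Spearman correlations of 0.944 and 0.958 (the same p values). At biopsy 1 they were 0.905 (permutation p = 0.00028, adjusted p = 0.00084) and 0.941 (permutation p = 1e-05, adjusted p = 6e-05), with Spearman correlations of 0.825 (adjusted p = 0.0033) and 0.860 (adjusted p = 0.00173). Without the 2 cows farthest in the markers these were 0.945 and 0.957 at biopsy 2 and 0.709 and 0.841 at biopsy 1, by Pearson. SCD gave 0.805 at biopsy 2 and 0.839 at biopsy 1 (permutation adjusted p = 0.00174 and 0.00173), with Spearman correlations of 0.972 and 0.881 (permutation adjusted p = 6e-05 and 0.00096).

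FADS2 gave -0.823 at biopsy 2 (permutation p = 0.00238, adjusted p = 0.00389), or -0.734 by Spearman (adjusted p = 0.0136), and -0.569 by Pearson without the 2 farthest cows. At biopsy 1 it gave -0.282 (permutation adjusted p = 0.410), which turned to 0.153 without low gain cow 4 and high gain cow 6. The difference between biopsies in this relation was not tested. FADS1 gave -0.663 at biopsy 2 (permutation adjusted p = 0.0219), which moved to -0.262 without high gain cow 4 and low gain cow 2 and thus rested on them, and -0.104 at biopsy 1 (permutation adjusted p = 0.738). ELOVL1 gave -0.280 at biopsy 2 (permutation adjusted p = 0.399) and 0.676 at biopsy 1 (permutation adjusted p = 0.0451), and without the 2 farthest cows -0.935 and 0.349. The ELOVL1 relations depended on those cows and had opposite signs at the biopsies.

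The members fell into sets by how they varied among arrays of a group. Deviations from group means had a Pearson correlation of 0.936 between ELOVL5 and ELOVL6 over 24 arrays, and 0.891 over the 20 arrays without cow 4 of each class. SCD had 0.725 with ELOVL6 and 0.615 with ELOVL5, and 0.710 and 0.575 without those cows. FADS1 and FADS2 had 0.736 with each other, and 0.903 without those cows. FADS2 had -0.647 with ELOVL6 and -0.638 with ELOVL5, and -0.438 and -0.488 without those cows. These are descriptions, given with no test, over arrays that come in pairs from the same cow and may share a normalization set.

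FADS1 and FADS2 are neighbours in the RefSeq annotation of ARS-UCD2.0, where FADS2 lies between FADS1 and FADS3 and the annotated spans of FADS1 and FADS2 overlap. Whether a feature of one gene reads the transcript of the other was not tested. The third gene of the row, FADS3, changed by 0.10 ± 0.13 between biopsies (limma adjusted p = 0.584), and it is named here for its place, with its value known.

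**Figure D4:**
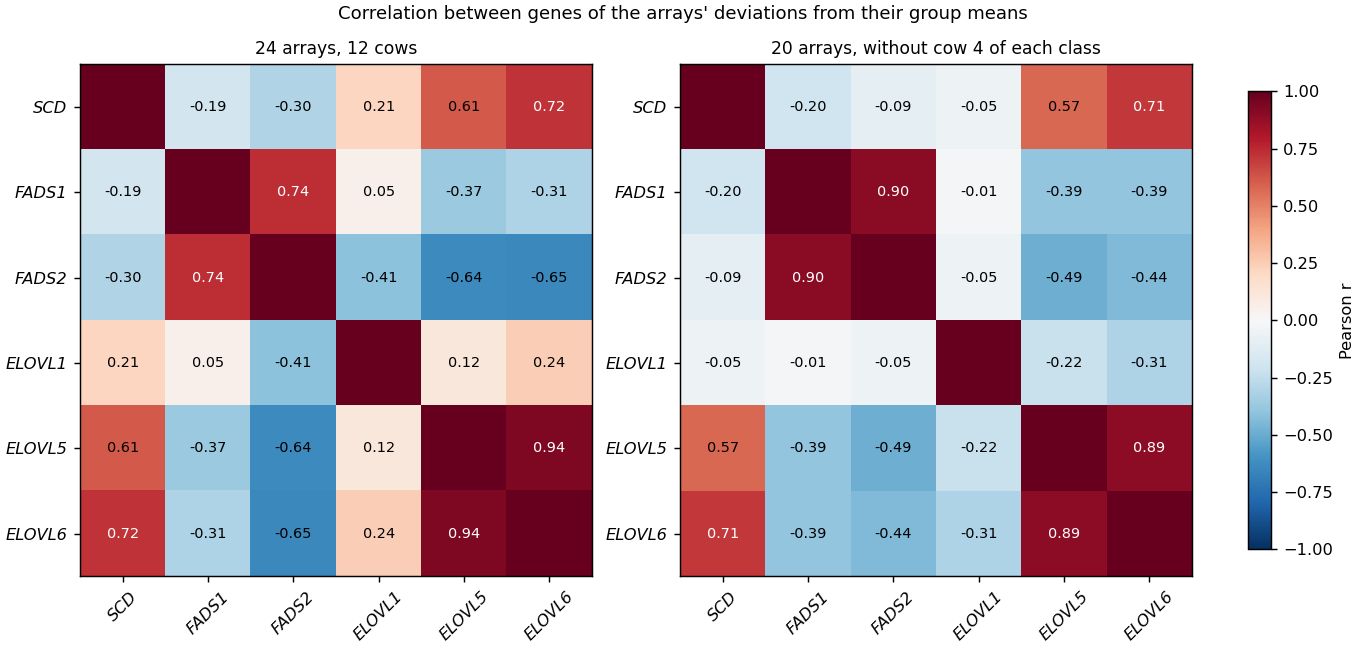
Pearson correlation between the 6 genes (both axes) of deviations from group means, over 24 arrays and over the 20 arrays without cow 4 of each class. SCD, ELOVL5 and ELOVL6 form a block of positive values, FADS1 and FADS2 form another, and ELOVL1 stands beside both.

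The tested genes outside the family with the most similar deviations differed by member, by Pearson correlation over 24 arrays. For ELOVL6 they were ACACA (0.976), THRSP (0.973) and FASN (0.971), which are acetyl-CoA carboxylase, a lipogenic regulator and fatty acid synthase. For ELOVL5 they were ACLY (0.982), the citrate-cleaving source of acetyl-CoA, PGD (0.976), an NADPH source, and APOE (0.975). For SCD they were the lipid droplet gene CIDEC (0.871), the fatty acid binding protein gene FABP4 (0.851) and MGST1 (0.843). Of these, CIDEC and FABP4 are on the adipocyte list. The 99th percentile of the correlation over the 13472 genes compared was 0.893 for ELOVL6, 0.882 for ELOVL5 and 0.674 for SCD. It was 0.734 for ELOVL1, 0.726 for FADS2 and 0.546 for FADS1. The values of different members are therefore not directly comparable.

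For FADS2 the closest were SLC19A2 (0.879), a thiamine transporter gene, CDCA7L (0.848) and BCL7A (0.848), and for FADS1 GTF2IRD2 (0.824), FLT3LG (0.779) and TRAF5 (0.761). For ELOVL1 they were MED12 (0.896), a Mediator subunit gene, LSP1 (0.866) and ETV6 (0.855), which had 0.659, 0.601 and 0.493 over the 20 arrays without cow 4 of each class. Over the same 20 arrays the ELOVL5 and ELOVL6 values were 0.923 to 0.963. The likeness of ELOVL1 to its nearest genes was thus lower without those cows. The FADS2 values were also lower over the 20 arrays, at 0.842 (SLC19A2), 0.752 (CDCA7L) and 0.756 (BCL7A). Those of FADS1 were 0.756 to 0.856 and those of SCD 0.855 to 0.896.

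Of 40 other genes chosen for their roles beside these enzymes, 33 were tested, and 15 rose and 3 fell between biopsies (54.5% called, against 38.1% of all tested genes). The median change was 0.47, against 0.02 over all tested genes. Without cow 4 of each class 16 rose and 3 fell. The list was put together with earlier results of these data known, so its count is a description.

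Among other desaturases and elongases, SCD5, the second stearoyl-CoA desaturase, rose by 0.77 ± 0.25 (limma adjusted p = 0.0263, upward in 10 of 12 cows), and FADS6 by 0.35 ± 0.08 (limma adjusted p = 0.00493, upward in 11). Both changes lie inside the range of 99% of the odorant receptor genes. FADS6 was near the dim limit of 6.76, at 6.65 to 6.93 at biopsy 1. SCD5 lost its call without any 1 of 5 cows (high gain cows 1, 2 and 5, low gain cows 1 and 5), with changes of 0.64 to 0.75. FADS3 and DEGS1, a dihydroceramide desaturase gene, did not pass. ELOVL2, ELOVL3, ELOVL4, ELOVL7 and DEGS2 were on the array but below the dim limit of 6.76, with means of 5.44 to 6.62 and no array above 7.14. Without the filter on dim genes, ELOVL4, which lengthens very-long-chain acids, fell by 0.33 ± 0.06 (limma adjusted p = 0.00057), and the other 4 did not pass.

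In the rest of the elongation cycle, TECR, the reductase of the last step, rose by 1.11 ± 0.29 (limma adjusted p = 0.00877, upward in 11 of 12 cows), and HACD3, a dehydratase of the third step, fell by 0.29 ± 0.09 (limma adjusted p = 0.0190), a call lost with values as deposited (-0.17, limma adjusted p = 0.134) and with no cow block. The change of HACD3 lies inside the range of 99% of the odorant receptor genes. TECR was 13.62, 14.58 and 15.24 (lowest, median and highest of 12) at biopsy 2, against 10.45, 13.43 and 14.94 at biopsy 1. The ketoreductase HSD17B12 and the dehydratases HACD1, HACD2 and HACD4 did not pass, with changes of 0.80 ± 0.44, 0.39 ± 0.23, 0.68 ± 0.76 and -0.30 ± 0.21. Of 5 genes of the cytochrome b5 system 1 rose, the reductase CYB5R1 by 1.61 ± 0.50 (limma adjusted p = 0.0212), and CYB5A, CYB5B, CYB5R3 and CYB5R4 did not pass.

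Of 5 acyl-CoA synthetases, which activate fatty acids, none rose and 2 fell, against 20.8% of all tested genes called higher and 17.4% called lower. ACSL6 fell by 0.69 ± 0.08 (limma adjusted p = 5.57e-05), downward in 12 of 12 cows, with 6.37, 6.57 and 6.93 at biopsy 2, against 6.96, 7.23 and 7.87 at biopsy 1, so that the biopsies did not overlap, which held for 1.34% of all tested genes with biopsy 2 below and 1.63% with biopsy 2 above. Like that of ACSL3, its change lies inside the range of 99% of the odorant receptor genes. ACSL3 fell by 0.45 ± 0.16 (limma adjusted p = 0.0357), a call lost when any of 7 cows was left out (high gain cows 1, 3 and 4, low gain cows 1, 2, 3 and 6) and with values as deposited (-0.31), median centring (-0.39, limma adjusted p = 0.0686) or no cow block. Neither of the 2 tested genes of peroxisomal chain shortening, HSD17B4 and SCP2, passed.

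Against 20.8% of all tested genes called higher, all 3 genes that place polyunsaturated chains in phospholipids rose, each in 12 of 12 cows. LPCAT3, which prefers linoleate and arachidonate, rose by 1.50 ± 0.33 (limma adjusted p = 0.00316), MBOAT7, which puts arachidonate into phosphatidylinositol, by 0.92 ± 0.10 (limma adjusted p = 2.69e-05) and AGPAT3 by 0.64 ± 0.11 (limma adjusted p = 0.000849). The changes of MBOAT7 and AGPAT3 lie inside the range of 99% of the odorant receptor genes. LPCAT3 was 13.39, 14.23 and 15.28 at biopsy 2, against 10.11, 13.06 and 13.90 at biopsy 1. MBOAT7 was 7.82, 8.39 and 8.98 at biopsy 2, against 7.20, 7.51 and 7.87 at biopsy 1. Both overlapped slightly between biopsies.

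Against 20.8% of all tested genes called higher, all 8 tested genes that control desaturase and elongase transcription in mammals rose. They included the sterol sensor INSIG1 (1.39 ± 0.33, limma adjusted p = 0.00510), the SREBP escort SCAP (0.88 ± 0.12, limma adjusted p = 0.000166), the liver X receptors NR1H3 (0.74 ± 0.07, limma adjusted p = 9.92e-06) and NR1H2 (0.47 ± 0.09, limma adjusted p = 0.00155) and their partner RXRA (0.79 ± 0.13, limma adjusted p = 0.000578). The fatty acid receptor PPARA rose by 1.08 ± 0.29 (limma adjusted p = 0.0108), and MLXIPL and SREBF1 rose too. The same 8 passed in the average over cows without cow 4 of each class. Within classes 7 were called higher in high gain cows (against 11.5% of all tested genes) and 5 in low gain cows (against 10.8%). Without cow 4 of each class these counts were 8 (against 16.3%) and 4 (against 12.2%). Except INSIG1, MLXIPL and PPARA the average changes over the 12 cows were below 1.03, the value that bounds 99% of the odorant receptor genes. MLXIPL was just above it, at 1.04. Without cow 4 of each class the changes of INSIG1, MLXIPL and PPARA were 1.13, 0.97 and 0.90.

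**Figure D5:**
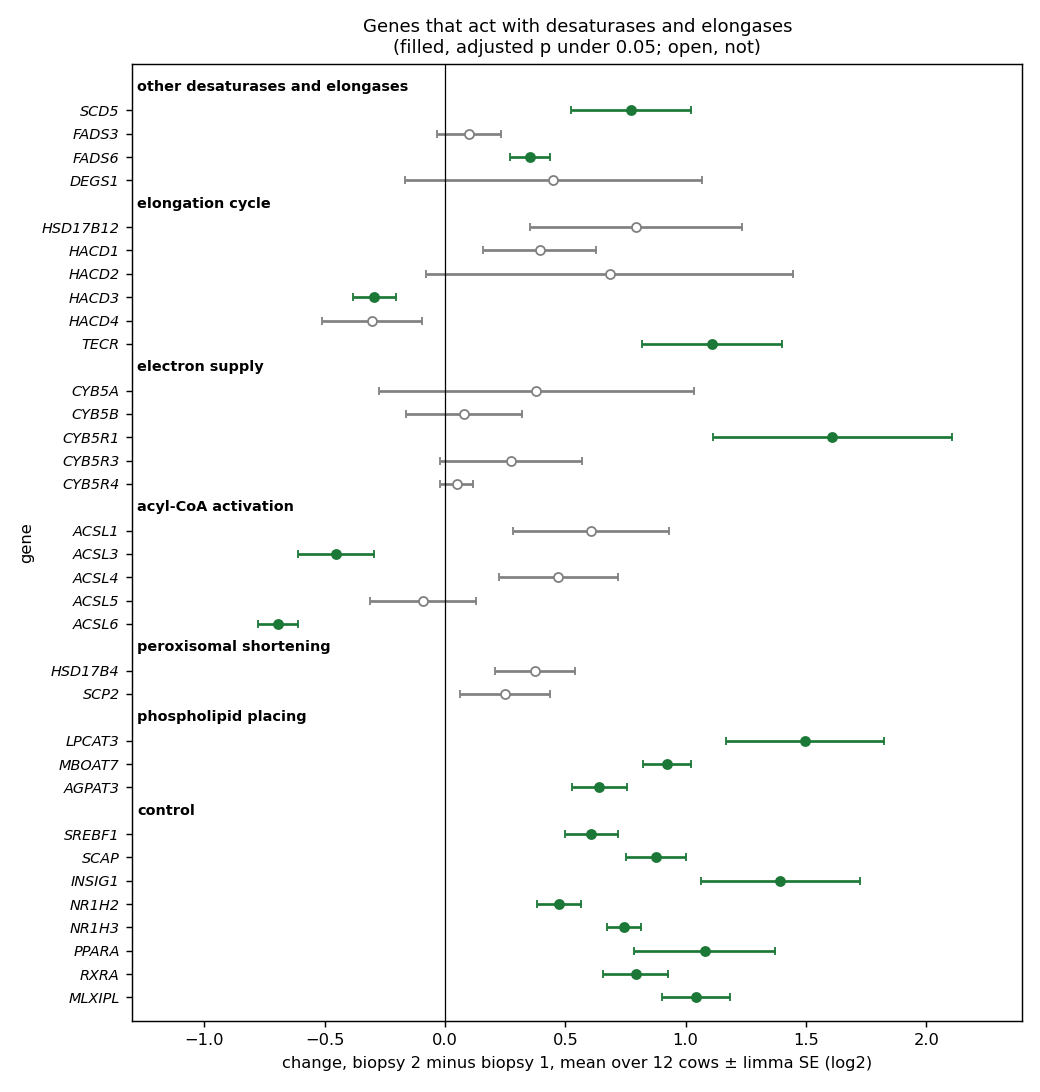
Change between biopsies (x axis, log2, mean over 12 cows ± limma SE, biopsy 2 minus biopsy 1) of 33 genes that act with desaturases and elongases (y axis, by role), filled where the adjusted p was under 0.05. All genes of phospholipid placing and of control lie to the right of 0, and the filled points to the left are HACD3, ACSL3 and ACSL6.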

How the data were processed

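The authors deposited a single table of normalized log2 values (base taken from their range, since it is not stated) for 26773 features of an Affymetrix bovine array on 24 samples. The submitters' processing notes name Affymetrix Expression Console and Transcriptome Analysis Console, without versions, and the way of normalizing is not stated.

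Of the features, 18790 had 1 gene in the platform annotation, 385 several and 7598 none; the Entrez number matched RefSeq for 18003 and changed 0 symbols. The brightest feature of a gene was kept, and a gene was tested if its mean reached the 25th percentile over features (6.76). Tests were made over all 14198 remaining genes with limma 3.58.1 in R 4.3.3 (lmFit, eBayes with a trend, Benjamini-Hochberg threshold of 0.05), and checked on simulated data. Changes between biopsies were fitted on quantile-normalized values with each cow as a block. Gain classes were compared within a biopsy on values as deposited. The titles carry an animal number that pairs the arrays; a cow's arrays had a median correlation of deviations of 0.157, against 0.027 for different cows.

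A feature within 0.05 of the highest value of its biopsy was called at the upper limit. Correlations with adipocyte markers used 100000 resamples. The naming rule took all 6 members, genes of the related list that passed, and the 3 genes most like each member. For the last of these, LOC numbers, accessions and open reading frame names were passed over. Other genes of the related list are named where a group is described. Members, lists and tests were chosen with earlier results of these data known. Alternatives were other normalizations, no filter, the mean of features, no trend, no block and leaving out cows. No genome, sequence table or scanner file was used here, and no sequence or coordinate is given. Limma p values are set against the spread between these cows, of within-cow changes or, for gain, of levels. Permutation p values set a correlation against those found after reshuffling these cows.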

Additional observations from a re-analysis of the deposited data

Results flagged for a closer look

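In 4 of 36 sets of 6 values (each gene in each group as deposited, and each gene's changes in each class), 1 value stood far from the other 5 by Dixon's criterion, which chance meets in about 1 of 20 sets. ELOVL5 was 15.33 on the biopsy 2 array of high gain cow 4, with the next value of the group at 9.25. The change of ELOVL5 in the same cow was 7.32, with the next high gain cow at 0.92. ELOVL6 was 15.44 and ELOVL1 was 9.27 on the biopsy 1 array of low gain cow 4, with the next values of that group at 10.32 and 8.07. The adipocyte marker means of these arrays, as deposited, were 14.60 for high gain cow 4 at biopsy 2 and 12.83 for low gain cow 4 at biopsy 1, the highest of their biopsies. On the same arrays the fibroblast marker means were 12.60 and 13.18, the endothelial marker means 11.14 and 12.28 and the leukocyte marker means 8.46 and 8.87, also the highest of their biopsies, and the muscle marker means were 19.03 and 14.88. The part of these markers in the values was not tested.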

How the results depend on the processing

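ELOVL1 kept its call for the average change under all 8 alternatives and without each cow in turn (0.52 to 0.70 without a cow). SCD passed with values as deposited (1.61), median centring (1.52), no filter (1.48), the mean of features (1.59), its other feature (1.70) and without cow 4 of each class (1.69), and did not pass with cyclic loess, no trend or no replicate block. With no replicate block 5471 genes were called for the average, 3113 in high gain and 3121 in low gain cows; no call of the 6 members changed, and HACD3 and ACSL3 lost theirs, as they did with values as deposited. Without a filter on dim genes the count of genes called was 4425 in place of 2876 in high gain cows and 4537 in place of 2878 in low gain cows; leaving out 1 cow gave 1748 to 3981 and 1955 to 2930, the lowest high gain counts being without high gain cow 1 (1748) and high gain cow 2. For the average it gave 4610 to 5891 genes, and no gene for the class difference or for gain.

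Signs turned only for values that had not passed. Without cow 4 of each class the change of FADS1 in high gain cows was 0.0800 in place of -0.09, that of FADS2 in low gain cows -0.0811 in place of 0.07, the class difference of SCD -0.26 in place of 0.63 and ELOVL5 by gain at biopsy 1 0.16 in place of -0.31. Leaving out 1 cow gave -0.27 to 0.19 for FADS1 in high gain cows and -0.0811 to 0.15 for FADS2 in low gain cows. The class difference then ran from -0.0257 to 1.45 for SCD, -0.27 to 0.0908 for ELOVL1, -1.59 to 0.43 for ELOVL5 and -1.79 to 1.05 for ELOVL6. By gain at biopsy 1 it ran from -0.00287 to 0.39 for FADS1, -0.52 to 0.12 for ELOVL5 and -1.38 to 0.14 for ELOVL6, and at biopsy 2 from -0.0335 to 0.16 for FADS2. At biopsy 1, without the 2 cows farthest in the adipocyte markers, the correlation turned to 0.175 for FADS1 and 0.153 for FADS2. The cause of these moves was not tested. The number of arrays and, for SCD, the upper limit of the scale limit the precision.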
